A study of Mus musculus with 27 samples.

Results

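Transcripts of 9 Krüppel-like factors were followed through the injury and repair of mouse muscle: Klf2, Klf3, Klf4, Klf5, Klf6, Klf9, Klf10, Klf13 and Klf15. They were selected by gene name, 9 of the 55852 entries of the larger of 2 deposited tables, and all 9 were listed in both tables. The data were bulk RNA-seq of whole muscle from male mice, 27 libraries in 9 groups of 3. WT C57BL/6J mice and mice labelled KO, which the study describes as knocked out for Gsdme in every tissue, were given cardiotoxin (CTX, a Naja pallida venom peptide that lyses muscle fibres) and their muscle was taken on D1, D4, D7 or D14, while the remaining group was WT control muscle. The study calls the injected muscle the gastrocnemius and the control the contralateral uninjured muscle, whereas the deposited design speaks of the thigh and an unloaded control. The titles say KO and the genotype field says knockdown, the design calls the 3 libraries of a group biological replicates, and the age of the mice is not given in the sources used here. Gsdme encodes gasdermin E, a pore-forming protein, and the study asks what its loss changes in repair. KLF4 enters that question as a candidate regulator of Lyve1+ resident macrophages.

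Krüppel-like factors are transcription factors whose zinc fingers bind GC-rich and CACCC motifs, and the regions outside the fingers decide whether a member activates or represses. Klf9 and Klf15 are induced by glucocorticoids and cycle with the circadian clock, and KLF15 drives amino acid and lipid use in muscle fibres. Klf6 and Klf10 respond early to wounding and to TGF-beta. Klf2 and Klf4 are known from endothelium and myeloid cells, Klf5 from proliferating cells, adipocyte precursors and differentiating muscle, Klf3 as a repressor that recruits CtBP, and Klf13 from lymphocytes and heart.

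Levels are TPM, a share of all transcripts in a library, corrected for length. Sequencing depth cannot be read from such values and was unknown. Whole muscle was sequenced, and fewer cells of a type cannot be told apart from less RNA per cell. Summed TPM of 16 mature myofibre genes ran from 48055 to 231980 over the 24 injured libraries, and that of 12 leukocyte genes from 187 to 6485, so that muscle and immune transcripts were present throughout. These sums also differed within groups. WT D1 replicate 3, KO D4 replicate 2 and KO D7 replicate 2 had the highest myofibre and the lowest leukocyte sums of their groups. WT D4 replicate 1 had the reverse. The first pattern was also that of KO D1 replicate 2 and WT D4 replicate 3, and the reverse that of KO D4 replicate 1, among others. Gsdme was read at 2.63 to 3.02 TPM in WT D4 and 1.00 to 1.64 TPM in KO D4, and the 2 genotypes overlapped on D14 (1.46 to 2.26 and 1.27 to 1.96 TPM). Its transcript was therefore lower but not absent, and KO is used here only as the label of those libraries.

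Promoter windows are shown for Klf15 and Klf9, because both fell between D1 and D4 in WT muscle. RefSeq (GRCm38.p6) gave a window for 7 of the 9 members, from 250 bases before to 50 bases after the annotated start, and none for Klf5 and Klf10. Capitals mark the E-box CACGTG, the motif bound by clock factors, and TGACG, the core of cyclic AMP response elements, both searched on both strands. The Klf15 window lies on the plus strand at chr6:90462326-90462625 and the Klf9 window on the plus strand at chr19:23140976-23141275.
Klf15: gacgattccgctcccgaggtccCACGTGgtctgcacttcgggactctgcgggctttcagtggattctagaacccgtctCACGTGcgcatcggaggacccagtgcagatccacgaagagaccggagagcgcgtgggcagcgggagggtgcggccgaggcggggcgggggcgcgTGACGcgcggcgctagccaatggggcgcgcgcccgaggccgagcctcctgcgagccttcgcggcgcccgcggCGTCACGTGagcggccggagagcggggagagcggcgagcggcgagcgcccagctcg
Klf9: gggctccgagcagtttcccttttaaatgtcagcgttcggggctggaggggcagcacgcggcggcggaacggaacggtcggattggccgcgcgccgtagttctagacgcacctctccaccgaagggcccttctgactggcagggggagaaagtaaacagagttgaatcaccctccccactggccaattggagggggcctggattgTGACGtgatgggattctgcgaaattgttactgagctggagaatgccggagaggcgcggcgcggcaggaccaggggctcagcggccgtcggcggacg
Klf15 held 3 E-boxes, 1 of which overlaps a TGACG, and Klf9 held none. Klf4 and Klf6 held 1 E-box each, so that 3 of 7 member windows had at least 1, against 7.15% of all 32851 windows of that length. TGACG was found in 6 of the 7 (20.8% of all windows), the GC box GGGCGG in 6 (35.7%) and CACCC in 5 (57.5%). A match describes the letters of a window and is no evidence of binding.

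Klf2 was the most abundant of the 9 in 13 of the 24 injured libraries, Klf6 and Klf9 in 5 each and Klf10 in 1. Klf5 was the least abundant in 22 and Klf15 in the other 2, both of them WT D4. In control muscle the order differed: Klf9 stood at 23.7 ± 0.982 TPM (SD, n = 3), Klf15 at 18.8 ± 3.75 TPM and Klf2 at 18.4 ± 1.84 TPM, the last pair within their spread. The plot of every library shows these courses by day.

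**Figure D1:**
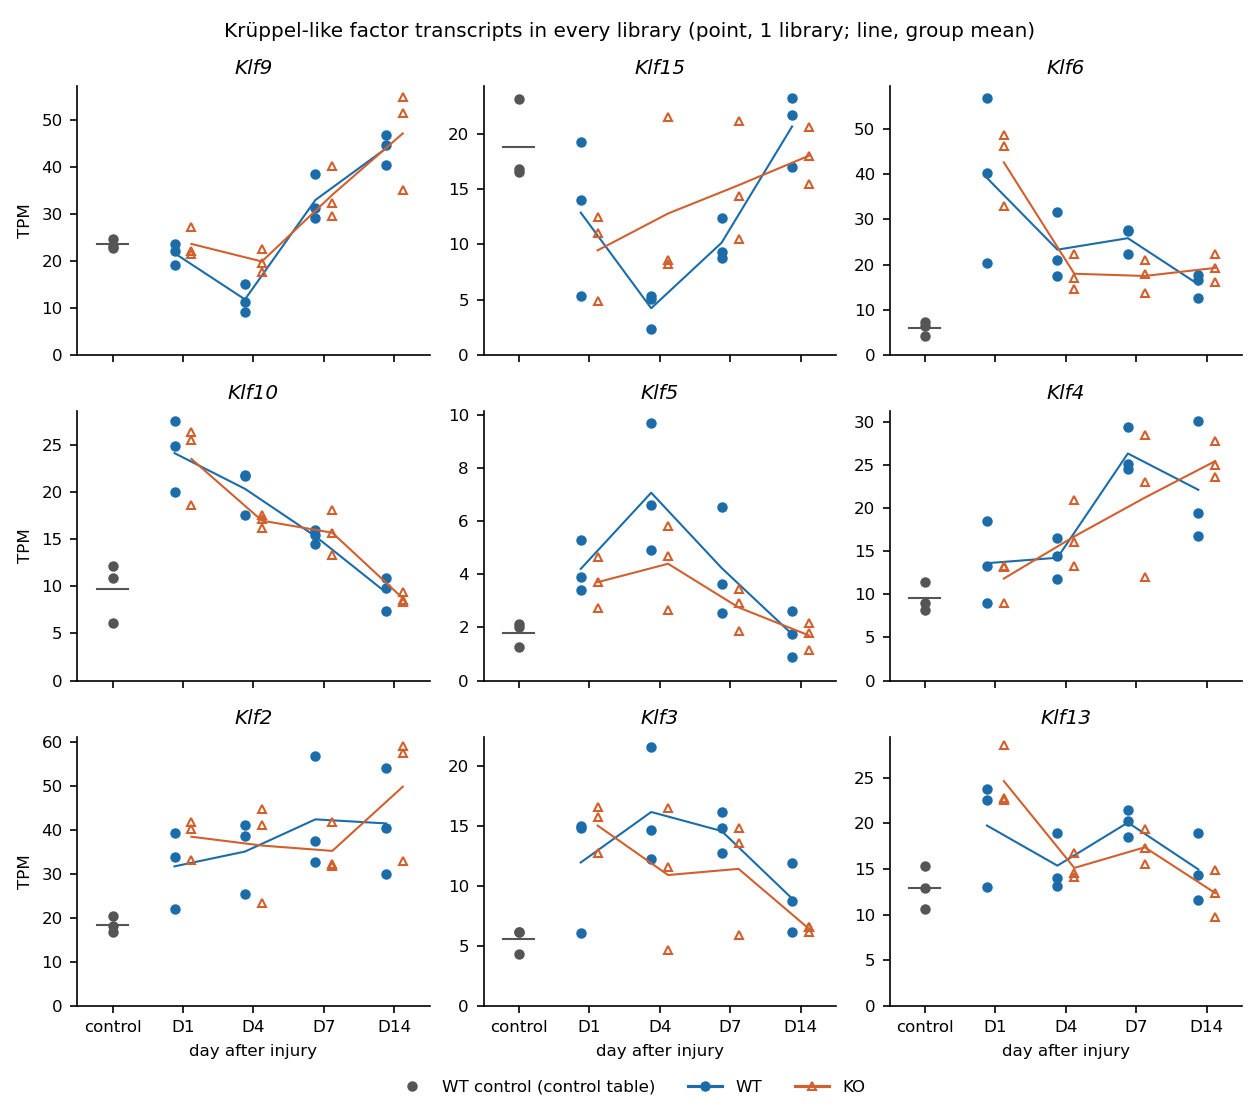
TPM of each Krüppel-like factor (vertical axes from 0, a scale for each panel) in every library, by day after injury. Points are single libraries (grey, WT control, which comes from the control table; blue circles, WT; orange triangles, KO) and lines join group means. Klf9 and Klf15 dip in WT D4, and Klf6 and Klf10 start high on D1. Group means of Klf4 are higher on D7 and D14 than on D1 and D4, although KO D7 replicate 2 is low (12.04 TPM). The 3 KO D4 points of Klf15 (8.22, 21.5 and 8.61 TPM) lie above the 3 WT D4 points.

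The injury step and the steps between neighbouring days were tested with limma on log2(TPM + 1), each over all genes that reached 1 TPM in at least 3 libraries, and a gene was called at a Benjamini-Hochberg adjusted p under 0.05. All 9 members passed that filter in both tables. From control to WT D1, 5 of 9 members were called, all higher, where 61.1% of all 13041 genes were called (55.4% higher), so that the share among the members was close to that of all genes. In WT, 2 of 9 were called from D1 to D4, both lower (19.8% of all 15718 genes called, 5.27% lower), 1 from D4 to D7, higher (12.3%, 3.04% higher), and 2 from D7 to D14, both lower (31.8%, 30.9% lower). In KO, 2 of 9 were called from D1 to D4, both lower (19.4%, 12.2% lower), 0 from D4 to D7 and 1 from D7 to D14, lower (0.56%, 0.477% lower). From D4 to D7 in KO, 0 of all genes were called by limma and 1555 had an unadjusted p under 0.05. Over all 4 days, limma's F test called 6 of 9 members in WT (Klf4, Klf5, Klf6, Klf9, Klf10 and Klf15) against 66.6% of all genes, and 5 of 9 in KO (Klf4, Klf6, Klf9, Klf10 and Klf13) against 51.1%, again close to the members' shares. Klf2 and Klf3 were called in neither genotype.

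Groups that did not overlap were counted too. After injury Klf2, Klf5, Klf6 and Klf10 lay wholly above control (64.2% of all genes did). In WT, Klf9 lay wholly lower on D4 than on D1 (7.39%). Klf4, Klf9 and Klf15 lay higher on D7 than on D4 (9.52%) and Klf10 lower (33.2%), and Klf9 and Klf15 lay higher on D14 than on D7 (4.58%) and Klf3, Klf6 and Klf10 lower (58.9%). In KO, Klf6, Klf10 and Klf13 lay lower on D4 than on D1 (19.8%), Klf9 higher on D7 than on D4 (2.43%) and Klf10 and Klf13 lower on D14 than on D7 (25.7%).

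TPM is a share, and the median of all genes itself moved. It moved by 0.66 after injury, 0.17, -0.24 and -0.45 in the WT steps and -0.15, -0.15 and -0.19 in the KO steps. The cause of these shifts of the median was not tested. Median-of-ratios scaling, which sets that median near 0, changed which members were called. After injury it left Klf6 called higher and Klf9 called lower (42.5% of all genes called, 49.6% of these higher in place of 90.8%). From D1 to D4 in WT, Klf6, Klf9, Klf10, Klf13 and Klf15 were then called, all lower (24.7% of all genes called, 12.8% lower, and 48.1% of calls higher in place of 73.5%), and from D4 to D7 Klf4, Klf9 and Klf13, all higher (11.6% called, 6.19% higher, and 53.1% of calls higher in place of 24.6%). From D7 to D14 in WT neither Klf5 nor Klf10 was called and Klf9 was, higher (14.1% called, 5.17% higher, and 36.6% of calls higher in place of 2.9%). In KO from D1 to D4 Klf6 alone remained called (26.1% called, 14.3% lower, and 45.1% of calls higher in place of 37.0%), and from D7 to D14 no member was (2.74% called, and 30.6% of calls higher in place of 14.8%). Quantile normalisation and removal of the most abundant genes called Klf9 from D7 to D14 in WT as well, and neither Klf5 nor Klf10.

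**Figure D2:**
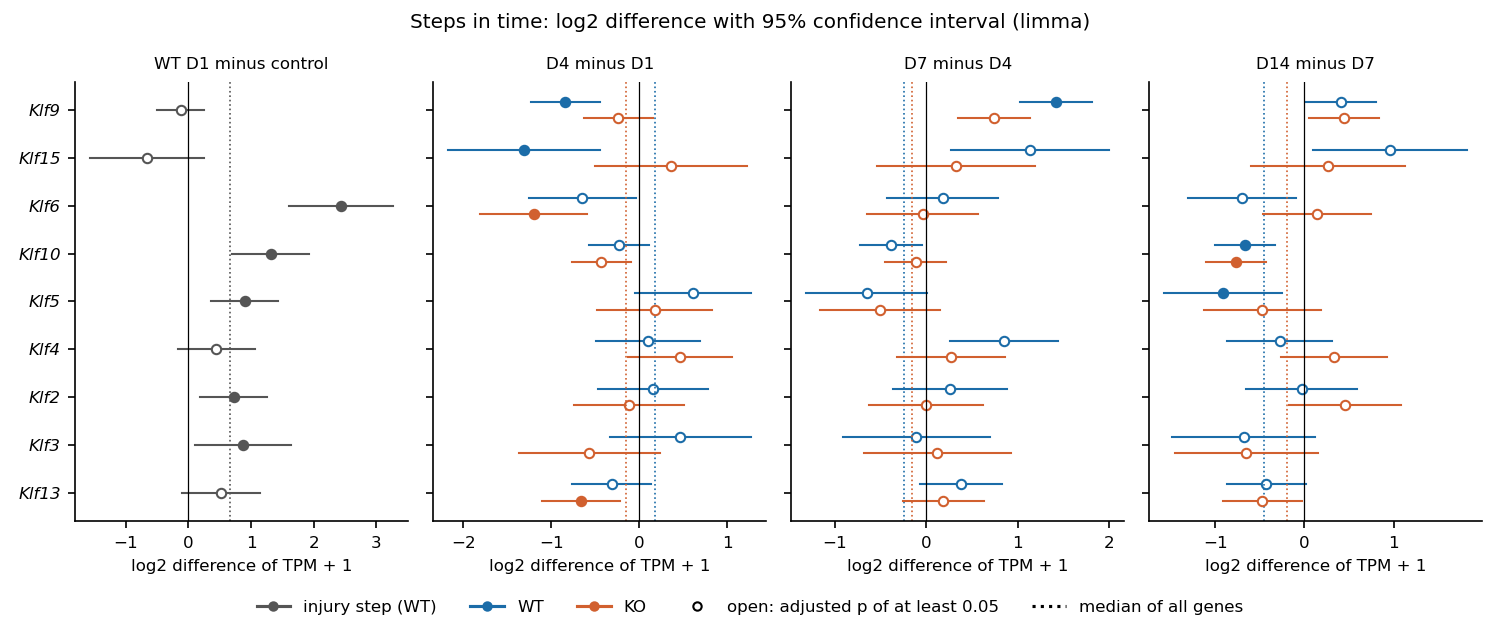
Log2 difference of TPM + 1 (horizontal axes) with its 95% confidence interval for each member, in the injury step and the 3 steps between days (grey, WT D1 against control; blue, WT; orange, KO). Filled points were called at an adjusted p under 0.05 and dotted lines give the median of all genes tested, 0.66 in the injury step. Klf6 lies farthest above that median after injury, at 2.43, and Klf9 rises farthest above it from D4 to D7 in WT, at 1.42.

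Klf9 (ENSMUSG00000033863, chromosome 19, 23141226 to 23168134, plus strand, GRCm38, GENCODE M21) encodes a glucocorticoid-induced factor that restrains proliferation. Its 3 control libraries read 22.9, 23.4 and 24.8 TPM and its WT D1 libraries 23.8, 19.3 and 22.2 TPM. The WT D4 libraries read 9.14, 15.1 and 11.4 TPM, the WT D7 libraries 38.6, 29.3 and 31.3 TPM and the WT D14 libraries 40.5, 44.7 and 46.8 TPM. WT D1 lay within or below the control range, WT D4 lay below D1 in every library, and D7 and D14 lay above both. Klf9 fell by 0.84 on the log2 scale from D1 to D4 (SE 0.19, limma adjusted p = 0.00366) and rose by 1.42 from D4 to D7 (SE 0.19, adjusted p = 0.00129). The rise was called in every alternative setting and without any single library, whereas the fall was not called with library quality weights (-0.43, adjusted p = 0.29). The step from D7 to D14 had a log2 difference of 0.41 (adjusted p = 0.0929) and was called under all 3 rescalings (0.80 to 0.99, adjusted p from 0.0224 to 0.043).

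In KO, Klf9 read 22.3, 27.3 and 21.6 TPM on D1, 17.6, 22.6 and 19.7 TPM on D4, 40.4, 29.7 and 32.4 TPM on D7 and 55.1, 51.6 and 35.1 TPM on D14. The D4 dip was shallow, with D1 and D4 overlapping, and D7 lay above D4 in every library. The step from D1 to D4 had an adjusted p of 0.374 and that from D4 to D7, at 0.74 on the log2 scale, had an SE of 0.19 and an adjusted p of 0.193. Without KO D4 replicate 2 the latter was 0.83 and was called (adjusted p = 0.0217).

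Klf15 (ENSMUSG00000030087, chromosome 6, 90462576 to 90475238, plus strand) encodes the factor that turns on amino acid catabolism in fibres. It read 23.2, 16.6 and 16.8 TPM in control muscle, 14.0, 5.34 and 19.2 TPM in WT D1 and 2.34, 5.04 and 5.34 TPM in WT D4. By WT D7 it read 12.4, 9.28 and 8.80 TPM and by WT D14 17.02, 23.24 and 21.64 TPM. WT D1 was widely spread, all 3 WT D4 libraries lay at or under its lowest value, and WT D14 was again near control muscle, which stands in another table. Klf15 fell by 1.30 from D1 to D4 in WT (SE 0.41, adjusted p = 0.0308). This call was lost without WT D1 replicate 1 (-1.17, adjusted p = 0.103), WT D1 replicate 3 (-0.95, adjusted p = 0.172) or WT D4 replicate 1 (-1.01, adjusted p = 0.142). It was also lost with no filter on low genes (adjusted p = 0.0613), with library quality weights (-0.87, adjusted p = 0.168) and with WT D4 replicate 1 and KO D4 replicate 2 both left out (adjusted p = 0.0821). The later steps had log2 differences of 1.13 from D4 to D7 (adjusted p = 0.0723) and 0.96 from D7 to D14 (adjusted p = 0.0774), and the groups did not overlap in either.

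In KO, Klf15 read 11.0, 12.5 and 4.90 TPM on D1, 8.22, 21.5 and 8.61 TPM on D4, 14.4, 21.1 and 10.5 TPM on D7 and 20.6, 18.0 and 15.5 TPM on D14. The D4 mean (12.8 TPM) lay above the D1 mean (9.46 TPM), but the D4 median (8.61 TPM) lay below the D1 median (11.0 TPM). Neighbouring days overlapped throughout, and the F test over days had an adjusted p of 0.212. The high KO D4 and KO D7 values were those of replicate 2, the libraries with the most myofibre transcripts of their groups.

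Genes known to share regulators with Klf9 and Klf15 were counted beside them. After injury, when neither member was called, 16 of 20 glucocorticoid-induced genes were called, 14 of them higher, with a median of 0.93 against 0.66 over all genes (Mt2 6.01, Mt1 5.05, Lcn2 5.05). Of 16 clock genes 10 were called in that step, 8 higher (median 0.53), and of 11 amino acid catabolism genes 5 were, 4 lower (median -0.62). After injury 61.1% of all genes were called, 55.4% higher and 5.64% lower. The share called among the clock genes was close to that of all genes. Of the same 20 glucocorticoid-induced genes, 11 were called from D1 to D4 in WT, 10 of them lower, led by Lcn2 (lipocalin 2, log2 difference -4.07), Mt2 (-3.39) and Mt1 (-2.88), the last pair being metal-binding metallothioneins. The list's median was -0.82 against 0.17 over all genes. Of 16 circadian clock genes tested, 10 were called, 8 lower, and their median was -0.60. In this step 19.8% of all genes were called, 5.27% lower. Ciart (-1.82), a repressor of the clock, fell, while Arntl (1.40) and Npas2 (1.29), activators of the clock, rose. The labels give no time of day of collection. From D4 to D7 in WT, 2 clock genes were called, both higher, Nr1d2 (1.28) and Per3 (0.81), and 6 glucocorticoid-induced genes were called, 4 of them lower. Among all genes 3.04% were then called higher and 9.31% lower. In KO from D1 to D4, 6 glucocorticoid-induced genes were called, all lower, and 1 clock gene, Arntl, which rose by 0.90. The medians of these 2 lists were -0.64 and -0.15, against -0.15 over all genes, of which 12.2% were called lower and 7.18% higher.

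Of 11 amino acid catabolism genes tested, a list of KLF15 targets, 3 were called from D1 to D4 in WT: Gpt (alanine aminotransferase, 1.27) rose, and Gpt2 (its mitochondrial form, -1.24) and Dbt (branched-chain keto acid dehydrogenase, -0.54) fell. From D7 to D14 in WT, Gpt2 (1.01) and Prodh (proline dehydrogenase, 0.73) rose and none fell. In KO from D1 to D4, Gpt (1.20) and Bckdhb (0.57) rose. The list's medians were -0.17, 0.29 and 0.48 in these steps, against 0.17, -0.45 and -0.15 over all genes. The shares of all genes called were 19.8%, 31.8% and 19.4% in the same order. Of all genes, 14.6%, 0.923% and 7.18% were called higher, and 5.27%, 30.9% and 12.2% lower.

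Myofibre transcripts also changed over these days. The myofibre sum was 189110 to 205240 TPM in control muscle, 92883 to 190870 in WT D1, 48055 to 101760 in WT D4, 125360 to 141380 in WT D7 and 142040 to 152140 in WT D14. The leukocyte sum was 177 to 227 TPM in control muscle, 1083 to 5089 in WT D1, 3061 to 6485 in WT D4, 1520 to 2095 in WT D7 and 187 to 645 in WT D14. Klf9 did not follow either sum throughout, being near control on D1 and above it on D14, when the myofibre sum was below control. WT D1 replicate 3, with the highest myofibre sum of its group, also had the highest Klf15. The part of fibre content in the courses of Klf9 and Klf15 was not tested.

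**Figure D3:**
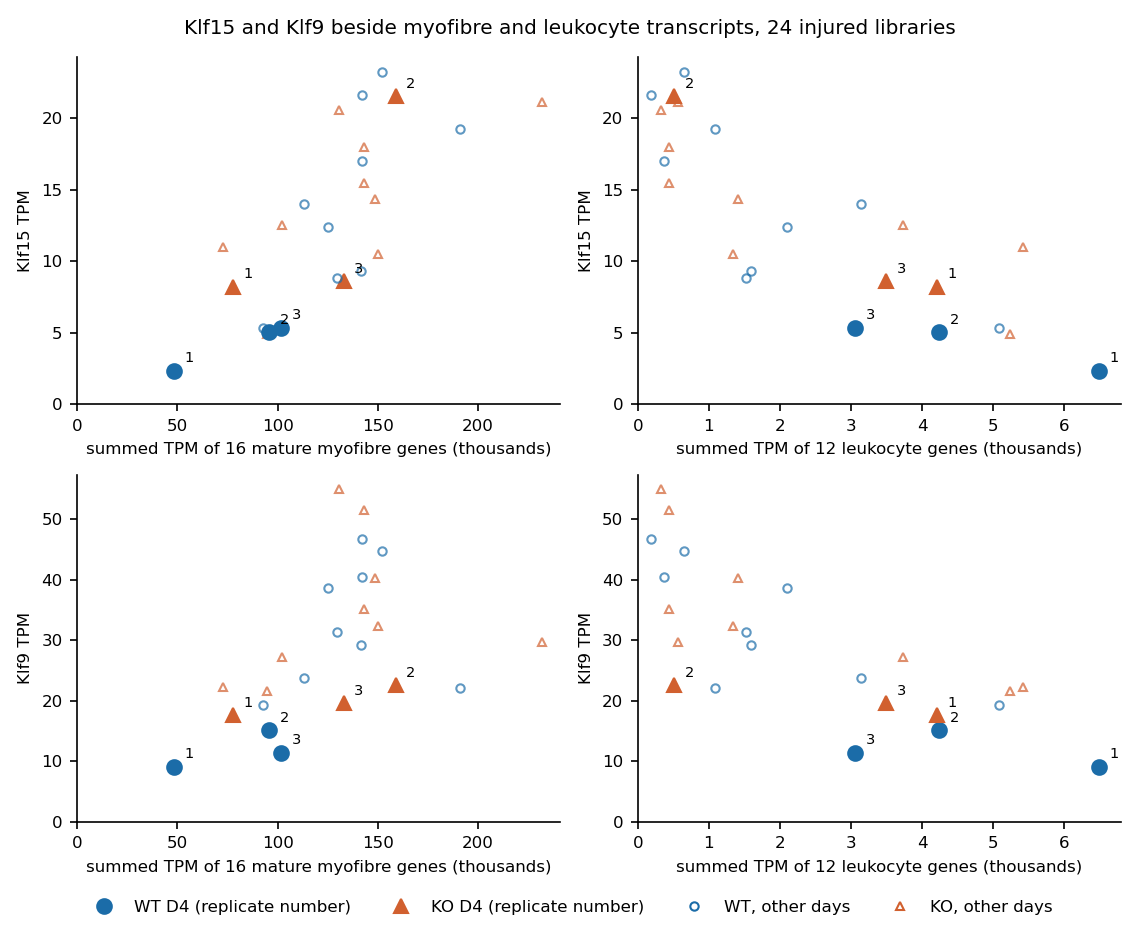
Klf15 (upper panels) and Klf9 (lower panels) in TPM against the summed TPM (axis in units of 1000) of 16 mature myofibre genes (left) and 12 leukocyte genes (right), for the 24 injured libraries. Large filled symbols are the D4 libraries with their replicate numbers (blue circles, WT; orange triangles, KO) and small open symbols the other days. KO D4 replicate 2, at 21.5 TPM of Klf15, lies at 158840 TPM of myofibre and 516 TPM of leukocyte transcripts, and WT D4 replicate 1, at 2.34 TPM, at 48055 and 6485.

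Klf6 (ENSMUSG00000000078, chromosome 13, 5861482 to 5870394, plus strand) encodes a wound-response factor, and of the 9 it rose farthest after injury. It read 4.16, 7.43 and 6.52 TPM in control muscle and 40.4, 56.9 and 20.3 TPM in WT D1 of the same table. Every WT D1 library lay above every control library. Klf6 rose by 2.43 (SE 0.36, limma adjusted p = 0.00208), 1.77 above the median of all genes, and the rise was called in every alternative setting (1.70 to 2.66) and without any single library. On the injured table it read 31.56, 20.99 and 17.43 TPM in WT D4, 27.5, 22.4 and 27.7 TPM in WT D7 and 16.7, 17.6 and 12.6 TPM in WT D14. None of these WT steps was called (adjusted p from 0.0696 to 0.689), but the step from D1 to D4, at -0.65 (adjusted p = 0.124), was called under all 3 rescalings (-0.83 to -0.91, adjusted p from 0.00201 to 0.00675). In KO, it read 46.2, 33.0 and 48.6 TPM on D1 and 22.3, 14.5 and 17.2 TPM on D4. These groups were apart, and Klf6 fell by 1.20 (SE 0.29, adjusted p = 0.00891). Without KO D1 replicate 3 the fall was 1.10 with an adjusted p of 0.0514. KO D7 and KO D14 libraries read 13.65 to 21.04 and 16.1 to 22.46 TPM.

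Klf10 (ENSMUSG00000037465, chromosome 15, 38291463 to 38300706, minus strand) encodes a TGF-beta inducible factor. It read 12.2, 10.9 and 6.08 TPM in control muscle and 20.4, 28.8 and 25.6 TPM in WT D1 of the same table, with no overlap, and rose by 1.31 (SE 0.27, adjusted p = 0.00475). Where libraries were rescaled by median-of-ratios it was 0.57 higher and no longer called (adjusted p = 0.133). It then read 21.8, 17.5 and 21.7 TPM in WT D4, 15.45, 14.49 and 15.95 TPM in WT D7 and 9.84, 10.8 and 7.37 TPM in WT D14. Each later WT day had a lower mean than the one before it. The fall of 0.67 from D7 to D14 was called (SE 0.16, adjusted p = 0.00983), 0.22 beyond the median of all genes, but not after rescaling (-0.13, adjusted p = 0.609), without WT D7 replicate 1 (-0.66, adjusted p = 0.0506) or without WT D14 replicate 3 (-0.52, adjusted p = 0.0718). In KO, Klf10 read 25.5, 18.7 and 26.4 TPM on D1, 17.5, 17.2 and 16.2 TPM on D4, 15.6, 13.4 and 18.0 TPM on D7 and 8.50, 8.33 and 9.34 TPM on D14. The groups of D7 and D14 did not overlap, and Klf10 fell by 0.77 between them (SE 0.16, adjusted p = 0.0317). That call was lost without any of 5 of the 6 libraries of these groups (adjusted p from 0.0801 to 0.209), KO D7 replicate 2 being the exception. It was also lost with no filter (adjusted p = 0.052), a replicate block (adjusted p = 0.0507), median-of-ratios scaling (-0.55, adjusted p = 0.0711) and quantile normalisation (-0.53, adjusted p = 0.0721).

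The early-response lists were counted beside them. After injury, 20 of 22 immediate early genes tested were called, all higher, led by Socs3 (3.42), Fosl1 (3.37) and Junb (3.24), and 9 of 12 genes of the TGF-beta early response were called, all higher. In that step 55.4% of all genes were called higher. From D7 to D14 in WT, 12 of 24 immediate early genes and 7 of 13 TGF-beta genes were called, all lower. The share of all genes called lower was then 30.9%. In KO from D7 to D14, where Klf10 was called lower, 0 genes of either list were called (0.56% of all genes). Of the same lists, 5 of 24 immediate early genes were called from D1 to D4 in WT, 2 higher and 3 lower. In that WT step 0 of 13 TGF-beta genes were called, where 19.8% of all genes were. From D1 to D4 in KO, 10 immediate early genes fell and 1 rose, with Socs3 (-2.33), Ier3 (-2.22) and Myc (-1.99) in front, and 4 TGF-beta genes fell, where 12.2% of all genes were called lower. Leukocyte sums were 177 to 227 TPM in control muscle and 1084 to 5099 TPM in WT D1, and the part of these cells in Klf6 and Klf10 was not tested.

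Klf5 (ENSMUSG00000005148, chromosome 14, 99298691 to 99315036, plus strand) was the least abundant member. It read 2.03, 1.25 and 2.11 TPM in control muscle and 3.89, 5.31 and 3.42 TPM in WT D1, and rose by 0.90 (SE 0.24, limma adjusted p = 0.0121). That call was lost under all 3 rescalings, with adjusted p up to 0.479 (0.32, adjusted p = 0.149, under median-of-ratios scaling). It was also lost without WT control replicate 2 (0.75, adjusted p = 0.0522). WT D4 had its highest mean, with 9.69, 4.90 and 6.61 TPM. It read 6.51, 3.64 and 2.55 TPM in WT D7 and 2.62, 1.74 and 0.87 TPM in WT D14. WT D14 overlapped WT D7 in 1 library, and the fall of 0.91 was called (SE 0.31, adjusted p = 0.0354). It was not called without WT D7 replicate 1 (-0.62, adjusted p = 0.192), WT D7 replicate 2 (-0.96, adjusted p = 0.0607), WT D14 replicate 2 (-0.94, adjusted p = 0.0601) or WT D14 replicate 3 (-0.66, adjusted p = 0.176). KO libraries ran from 2.74 to 4.64 TPM on D1, 2.67 to 5.81 on D4, 1.87 to 3.46 on D7 and 1.13 to 2.16 on D14, and no step was called.

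Klf4 (ENSMUSG00000003032, chromosome 4, 55527143 to 55532466, minus strand) encodes a factor of endothelium and macrophages. It read 9, 8.19 and 11.46 TPM in control muscle, 18.5, 13.3 and 9.04 TPM in WT D1 and 11.8, 16.5 and 14.5 TPM in WT D4. The WT D7 libraries were all higher, at 24.6, 25.1 and 29.4 TPM, and the WT D14 libraries read 16.8, 30.2 and 19.5 TPM. The step from D4 to D7, at 0.85 on the log2 scale with an SE of 0.28, missed the threshold (adjusted p = 0.0538). It was called under 5 of the other settings, among them median-of-ratios scaling (1.12, adjusted p = 0.0187). In KO, it read 13.2, 13.3 and 9.01 TPM on D1, 20.91, 16.03 and 13.25 TPM on D4, 23.08, 12.04 and 28.56 TPM on D7 and 25.01, 23.65 and 27.75 TPM on D14. The KO libraries spread most on D7, where replicate 2 was low. Klf4 differed over days in both genotypes (F test, adjusted p = 0.0156 in WT and 0.024 in KO).

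Klf2 (ENSMUSG00000055148, chromosome 8, 72319033 to 72321656, plus strand), a flow-responsive factor of endothelium, read 20.4, 16.8 and 18.1 TPM in control muscle and 39.42, 33.92 and 21.97 TPM in WT D1. The rise of 0.72 was called (SE 0.23, adjusted p = 0.0262) but lay only 0.06 above the median of all genes and turned to -0.04 under median-of-ratios scaling. The call was lost without WT D1 replicate 1 (0.55, adjusted p = 0.0957) or 2 (0.65, adjusted p = 0.0576) and without any of the 3 control libraries (adjusted p from 0.053 to 0.0886). Afterwards its libraries ran from 25.4 to 41.2 TPM in WT D4, 32.8 to 56.9 in WT D7 and 29.9 to 54.2 in WT D14, and from 23.4 to 59.2 TPM over KO D4, D7 and D14, with all days overlapping. Summed TPM of 14 endothelial genes was 319 to 345 in control muscle and 319 to 695 over the injured libraries.

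Beside Klf4 and Klf2, 4 of 14 endothelial genes were called after injury, 3 higher (median 0.39), and 6 of 9 resident macrophage genes, all higher (median 0.58), where 61.1% of all genes were called with a median of 0.66. From D4 to D7 in WT, 1 of 14 endothelial genes was called, Ptprb (a vascular endothelial phosphatase, 1.19), higher, where 3.04% of all genes were called higher. Of 9 resident macrophage genes, 2 were called in that step, Fcna (-1.15) and Cbr2 (-0.73), both lower. Of 11 genes the study named as shared targets of KLF4 and JUN, 7 were called after injury, all higher, a share close to the 61.1% of all genes, and 4 from D4 to D7 in WT, all lower, where 9.31% of all genes were called lower, among them Egr1 (-1.56), Fcna and Ier2 (-0.93). The study chose that list from single-cell data of macrophages, and Klf2, which it also holds, was left out of the count.

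Klf3 (ENSMUSG00000029178, chromosome 5, 64803388 to 64832901, plus strand) read 6.17, 4.35 and 6.19 TPM in control muscle and 14.2, 15.0 and 5.99 TPM in WT D1. Replicates 1 and 2 were far above the control and replicate 3 was within its range. The rise of 0.87 was called (SE 0.33, adjusted p = 0.0486), 0.21 above the median of all genes, and the call was lost under all 3 rescalings (adjusted p from 0.262 to 0.798) and without any library but WT D1 replicate 3, whose absence gave 1.26 (adjusted p = 0.000157). It read 12.3 to 21.6 TPM in WT D4, 12.8 to 16.2 in WT D7 and 6.19 to 11.9 in WT D14. In KO it read 12.8 to 16.6 TPM on D1, 4.64 to 16.5 on D4, 5.93 to 14.8 on D7 and 6.18 to 6.56 on D14. The lowest KO D4 and KO D7 values were again those of replicate 2, and no step was called.

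Klf13 (ENSMUSG00000052040, chromosome 7, 63886351 to 63938915, minus strand) overlaps the protein-coding gene E030018B13Rik on the other strand, as Klf3 does the predicted gene Gm20033, and whether counting used strand is not stated, so that reads of such pairs may not be told apart. It read 12.9, 10.6 and 15.3 TPM in control muscle and 24.1, 22.1 and 12.4 TPM in WT D1 of the same table (adjusted p = 0.122). WT libraries ran from 13.2 to 19.0 TPM on D4, 18.6 to 21.5 on D7 and 11.6 to 19.0 on D14, with no step called without rescaling. KO libraries read 22.6, 22.8 and 28.6 TPM on D1 and 14.5, 14.1 and 16.8 TPM on D4, with no overlap. The fall of 0.67 was called (SE 0.21, adjusted p = 0.0357), 0.52 beyond the median of all genes, and it was called only without KO D1 replicate 2 when single libraries were left out (adjusted p from 0.0509 to 0.157 for the other 5). It was also lost with no filter, median-of-ratios scaling, quantile normalisation and library quality weights, and with WT D4 replicate 1 and KO D4 replicate 2 both left out (adjusted p from 0.063 to 0.11). It read 15.5 to 19.4 TPM in KO D7 and 9.79 to 14.9 TPM in KO D14.

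With WT D1 replicate 3 left out, 8 of 9 members were called in the injury step, all but Klf9, where 68.8% of all genes were called. Klf15 then stood at -1.01 (adjusted p = 0.00625) in place of -0.66 (adjusted p = 0.173). Relative to the median of all genes, Klf15 was 1.32 lower and Klf9 0.79 lower after injury. Klf9 itself differed by -0.12 (adjusted p = 0.521), was called lower under all 3 rescalings (-0.65 to -0.88, adjusted p from 0.012 to 0.0276) and stood at 0.00071 with library quality weights.

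KO was compared with WT on each day. None of the 9 members was called by limma on D1, D4, D7 or D14, where 0.00636%, 0%, 0% and 0% of all genes were called, nor in the average over days (0.00636%). Adjusted p over the members was at least 0.873 on D1, 0.212 on D4, 0.776 on D7, 1.00 on D14 and 0.861 for the average. At an unadjusted p under 0.05 there were 2 members on D4, Klf9 and Klf15, where 22.7% of all genes had one (3568 genes), and 0 members on the other days, where 845 genes had one on D1, 481 on D7 and 324 on D14. In the average over days only Klf9 had one, KO being higher by 0.24 on the log2 scale with an SE of 0.09 and an adjusted p of 0.861, where 556 of all genes had one.

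**Figure D4:**
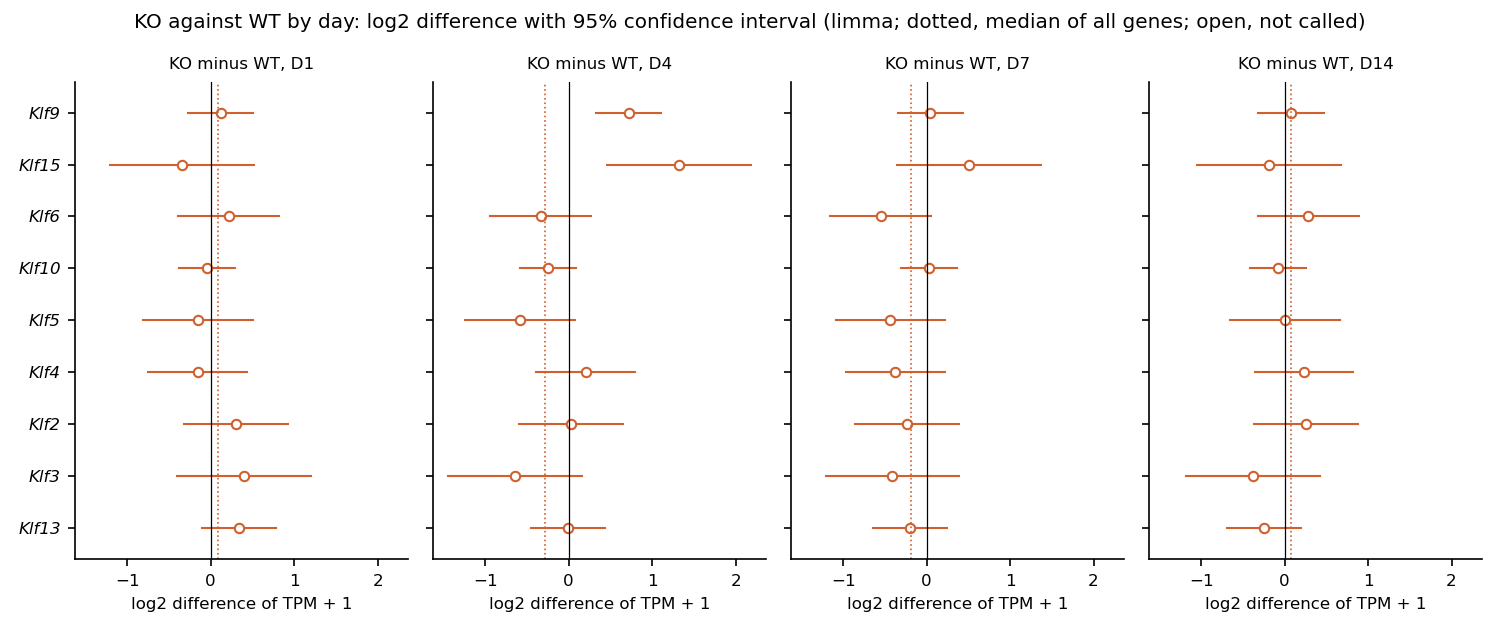
Log2 difference of TPM + 1 between KO and WT (horizontal axes, KO minus WT) with its 95% confidence interval for each member on D1, D4, D7 and D14. All points are open, since none was called, and the dotted line is the median of all genes tested (-0.28 on D4). On D4 the intervals of Klf9 (0.33 to 1.11) and Klf15 (0.46 to 2.18) lie above 0, and on the other days every interval includes 0.

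On D4, Klf15 read 2.34, 5.04 and 5.34 TPM in WT and 8.22, 21.5 and 8.61 TPM in KO, and Klf9 read 9.14, 15.1 and 11.4 TPM in WT and 17.6, 22.6 and 19.7 TPM in KO. Every KO library lay above every WT library for both genes. The same WT D4 libraries enter the WT steps from D1 to D4 and from D4 to D7, so that these comparisons are not independent. Klf15 differed by 1.32 (SE 0.41, limma adjusted p = 0.212) and Klf9 by 0.72 (SE 0.19, adjusted p = 0.212), with the median of all genes at -0.28. The groups of Klf10 did not overlap either, KO being lower by 0.24, a difference that turned to 0.10 under median-of-ratios scaling. These were 3 of 9 members without overlap, 2 higher and 1 lower, where 14% of all genes had none (2.77% higher, 11.2% lower). Leaving out KO D4 replicate 2 moved Klf15 to 0.90 and Klf9 to 0.63, and leaving out WT D4 replicate 1 with it moved them to 0.61 and 0.47. With library quality weights Klf15 stood at 0.79 and Klf9 at 0.26.

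At D4 the myofibre sum was 48055, 95670 and 101760 TPM in WT and 77807, 158840 and 132970 TPM in KO, and the leukocyte sum was 6485, 4246 and 3061 TPM in WT and 4207, 516 and 3498 TPM in KO. The adipocyte sum (13 genes) was 755, 456 and 354 TPM in WT and 745, 1590 and 657 TPM in KO, and the sum of 11 Schwann cell and nerve genes was 289, 192 and 497 TPM in WT and 511, 1765 and 254 TPM in KO. The genotypes overlapped in all 4 sums, KO replicate 2 was the highest in 3 of them and the lowest in the leukocyte sum, and the libraries with the lowest and the highest Klf15 were those with the lowest and the highest myofibre sum. Their part in the difference was not tested. Whether KO minus WT varied between days was tested by limma's F test over all genes, and both Klf15 and Klf9 had an adjusted p of 0.527. It called 0 members and 0% of all genes, 1203 genes having an unadjusted p under 0.05.

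Klf4 differed between KO and WT by -0.15 on D1 (95% confidence interval -0.75 to 0.44), 0.21 on D4 (-0.39 to 0.80), -0.38 on D7 (-0.97 to 0.22) and 0.23 on D14 (-0.36 to 0.82). The genotypes overlapped on every day, and every interval included 0. The study's KLF4 evidence was inferred target-gene activity in single macrophages, nuclear protein, promoter binding and an inhibitor. Klf4 transcript of whole muscle is a different measure. Resident macrophage transcripts, 10 genes summed, were 365 to 643 TPM in WT D4, 287 to 553 in KO D4, 133 to 249 in WT D14 and 168 to 208 in KO D14. On D7, Klf6 read 17.87, 13.65 and 21.04 TPM in KO and 27.5, 22.4 and 27.7 TPM in WT, all KO libraries being lower (16.5% of all genes without overlap, 14.6% lower). It differed by -0.55 (SE 0.29, adjusted p = 0.776), of which -0.36 was beyond the median of all genes. On D1 and D14 all 9 members overlapped between genotypes, where 6.71% and 8.42% of all genes did not.

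The rest of the family was listed too. Of 8 other Klf genes 5 were tested in the injured libraries (Klf7, Klf11, Klf12, Klf14 and Klf16), and of 9 Sp genes, whose zinc fingers are related, 5 were tested. After injury 3 of 4 other Klf genes and 3 of 4 Sp genes tested were called, all higher, led by Klf16 (1.64) and Sp3 (1.44), where 55.4% of all genes were called higher. The medians of these lists, 0.67 and 0.76, were near the 0.66 of all genes. From D1 to D4 in WT, Klf14 rose from 0.0733 to 2.58 TPM (log2 difference 1.72) and Klf11 by 0.74, and Sp7, a factor of bone-forming cells, rose from 0.00667 to 2.98 TPM (1.94). In that WT step 2 of 5 other Klf genes and 1 of 5 Sp genes were called, where 14.6% of all genes were called higher. Klf14 (0.99) and Sp7 (1.21) rose in KO as well, where 7.18% of all genes were called higher. From D4 to D7 in WT, Sp7 fell by 1.52 and Sp2 by 0.55, where 9.31% of all genes were called lower. In none of the 8 gene lists was any gene called between KO and WT on any day. On D4, 14 of 24 immediate early genes had an unadjusted limma p under 0.05, as did 22.7% of all genes. The median of the 24 was -0.80, against -0.28 over all genes.

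Genes most like each member over the 24 injured libraries were found by Pearson's r of log2(TPM + 1) among 9500 other genes, as a description, since libraries of a day share their tissue composition. They were Sucla2 (0.93) and Oip5os1 (0.93) for Klf9, Asb14 (0.93) and Asrgl1 (0.93) for Klf15, Prkx (0.95) and Nus1 (0.94) for Klf6, and Bcl7b (0.95) and Szrd1 (0.94) for Klf10. For Klf5 they were Add1 (0.94) and Ddr1 (0.94), for Klf3 Uhrf2 (0.95) and Man2a1 (0.93), for Klf13 Lrrc8c (0.86) and Adamts9 (0.84) and for Klf4 Tmem204 (0.89) and Ndufa2 (0.88). Klf2 had the least close pair, Kcnj8 (0.77) and Gimap6 (0.77). Klf9 and Klf15 correlated with each other at 0.79 over the libraries and at 0.54 after the group means were removed. Other pairs were larger in size after that removal, among them Klf6 with Klf15 (-0.77) and Klf3 with Klf6 (0.74).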

How the data were processed

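RNA was extracted from whole muscle and libraries were made with a SMARTER mRNA kit and sequenced paired-end on an Illumina instrument, per the labels. The TPM values, the only unit used, were computed and deposited by the authors in 2 tables, 1 with the 24 injured libraries and 1 with the WT control and the same WT D1 libraries. The largest difference of a member between the tables for the same library was 4.88%. The submitters' processing notes name the build mm10, and the aligner, counter, strand setting and time of day are not given in the sources used here. Group means in the tables are the authors' own and were not used. TPM keeps no depth, so no counting interval can be given, and a TPM value falls where other transcripts rise.

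Values were taken as log2(TPM + 1), a scale that understates the changes of low genes such as Klf5, genes with at least 1 TPM in at least 3 libraries were kept (15718 injured, 13041 control), and group means were fitted with limma 3.58.1 in R 4.3.3 with a mean-variance trend, 8 groups of the injured table in 1 fit and the control comparison in its own. P-values were two-sided and adjusted by Benjamini-Hochberg over all genes tested. They set differences of group means against the spread between libraries within groups. That spread was pooled over all groups of a fit and moderated by limma, so it is not that of the compared groups alone. The study's methods name 2 batches, injured with contralateral muscle and WT with KO, which the labels do not assign to libraries, so batch could not be fitted. Alternatives were pseudocounts of 0.1 and 0.5, other filters (none, or 5 TPM), median-of-ratios and quantile scaling, removal of the most abundant genes (these 3 are called rescalings), library quality weights, a replicate block and leaving out libraries. Scripts were tested on simulated data. The members and gene lists were chosen with earlier results of these data known. Genes named from a list were those called with the largest differences, at most 3 for a list and comparison, and for likeness the 2 highest correlations. Not every gene of that rule is reported here. Endothelial and resident macrophage genes were named after their values were seen. Coordinates come from GENCODE M21 (GRCm38) and promoter windows from RefSeq.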

Additional observations from a re-analysis of the deposited data

How the results depend on the processing

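For 31 log2 differences of single members, 523 comparisons with an alternative setting were made: 427 kept their direction and their side of the threshold, 64 lost the call, 23 gained one and 9 changed sign. The cause was not tested. All counts below are of 9 members, with the share of all genes called in the same fit in brackets. Without a filter the members called numbered 3 after injury (25.8%), 1 in WT D4 minus D1 (9.62%), 1 in WT D14 minus D7 (10.2%), 1 in KO D4 minus D1 (7.27%) and 0 in KO D14 minus D7 (0.141%). A minimum of 5 TPM gave 2 in WT D7 minus D4 (16.4%). Median-of-ratios scaling gave 2 after injury (42.5%), 5, 3 and 1 in the WT steps in order (24.7%, 11.6%, 14.1%), and 1 and 0 in KO D4 minus D1 and D14 minus D7 (26.1%, 2.74%). Quantile normalisation gave 2 after injury (40.1%), 3 and 1 in WT D7 minus D4 and D14 minus D7 (14.4%, 13.4%), and 1 and 0 in the same KO steps (26.7%, 2.64%). Removal of abundant genes gave 3 after injury (45.0%) and 5, 3 and 1 in WT (23.3%, 11.0%, 17.3%). Library quality weights gave 8 after injury (83.2%), 0, 6 and 7 in WT (17.3%, 67.4%, 60.5%), 1 and 6 in the same KO steps (13.3%, 50.01%) and 8 over all KO days (84.0%). With WT D4 replicate 1 and KO D4 replicate 2 both left out, 1 member was called in KO D4 minus D1 (17.1%) and 1 in KO D7 minus D4 (12.2%). Leaving out single libraries gave 2 to 8 members after injury, 1 to 2 from D1 to D4 and 0 to 2 from D7 to D14 in WT, and 0 to 3, 0 to 1 and 0 to 1 in the KO steps in order. Over all days it gave 5 to 7 in WT and 4 to 7 in KO. No member was called between KO and WT under any alternative run.

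Signs changed for Klf2 after injury (-0.040, median-of-ratios), Klf9 after injury (0.00071, weights), Klf10 in KO minus WT on D4 (0.10, 0.068 and 0.0044 under the 3 rescalings), Klf4 on D7 (0.034, weights) and Klf4 on D1 (0.20 with weights and -0.40 to 0.081 without single libraries). Whether replicate numbers pair libraries is not known. Same-numbered WT and KO deviations correlated at -0.401 to 0.395, and those of WT D1 and control at 0.00213 to 0.0611. With so few pairs this cannot decide it. The study's control is the contralateral muscle, so WT D1 and control may be paired, and the main fit of the injury step ignored this. A replicate block moved 1 count, KO D14 minus D7, to 0 (0.42%). Depth is unknown, 3 libraries a group limit every comparison, and TPM is a share that changes in other transcripts can move.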
